A study of Mus musculus with 12 samples.

Results

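The chemokine genes *Ccl1*, *Ccl3*, *Ccl4*, *Ccl5*, *Ccl17*, *Ccl20*, *Ccl22*, *Xcl1* and *Cxcl10* were followed in mouse Th9 cells, the IL-9-producing subset of CD4+ T helper cells. The 9 genes were found by symbol among the 32051 genes of the expression table, which holds 35 further genes with a chemokine ligand symbol, of which 1 (*Ccl19-ps3*) is annotated as a pseudogene. All cells were naive CD4+ T cells from spleens of C57BL/6J mice. The cells were polarized to Th9 cells in culture with plate-bound anti-CD3, soluble anti-CD28, IL-4, TGF-β and neutralizing antibodies against IFN-γ and IL-12. They received DMSO (the vehicle), 10 μM EpA (endomelipeptide A, a cyclic lipopeptide from an endophytic fungus), 5 μM fatostatin (an inhibitor of the lipogenic factor SREBP1), or EpA and fatostatin together, and RNA was taken on day 4. Each of the 4 groups had 3 libraries. The labels give the strain C57BL/6J for all libraries and no transgene, and per the methods of the study the mice were 6 to 8 weeks old and matched for sex and age. The study calls its samples independent, but neither it nor the labels say whether libraries of a group came from separate mice or cultures, so p-values measure the spread between these libraries, which may be technical. The comparisons ask how each compound, and fatostatin on top of EpA, moved the transcripts of these chemokines.

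Chemokines are small secreted proteins that attract leukocytes along gradients by binding G protein-coupled receptors. *Ccl17* and *Ccl22* share the receptor *Ccr4*, which is carried by Th2 cells, regulatory T cells and other activated T cells, and both are best known as products of dendritic cells and macrophages, although activated T cells also make *Ccl22*. *Ccl3*, *Ccl4* and *Ccl5* are inflammatory chemokines that attract monocytes and effector T cells, and *Ccl3* and *Ccl5* bind *Ccr1*. *Xcl1* attracts Xcr1+ dendritic cells that cross-present antigen to CD8+ T cells, *Cxcl10* attracts Cxcr3+ Th1 and CD8+ cells, *Ccl20* attracts Ccr6+ cells, and *Ccl1* binds *Ccr8*.

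Between 36019739 and 43656682 reads per library were recovered on genes, and the 12 libraries differed little in the sum of their FPKM (reads of a gene scaled by its length and by the size of the library), which lay between 279720 and 286956. The label was checked against markers. The T cell genes *Cd3e*, *Cd3d*, *Cd3g*, *Cd4*, *Cd28* and *Lat* summed to 488 to 494 FPKM with DMSO, 433 to 442 with EpA, 486 to 502 with fatostatin and 429 to 435 with both compounds. *Il9* was at 54.6 FPKM on average with DMSO and at 640.0 FPKM with EpA. *Irf4* and *Batf*, factors of Th9 differentiation, were at 143 to 164 and 71.4 to 95.3 FPKM on average in the 4 groups. With DMSO and EpA in turn, *Irf4* averaged 156 and 143 FPKM, the lower value with EpA, and *Batf* averaged 75.5 and 95.3 FPKM. *Spi1*, which encodes PU.1, another Th9 factor, was nearly absent, at means of 0.0178 FPKM with DMSO to 0.107 FPKM with EpA and at most 18 reads in a library, and fell below the minimum level for testing.

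*Ccl22* and *Ccl17* lie in 1 cluster on chromosome 8 with *Cx3cl1* between them. In GRCm38, *Ccl22* (ENSMUSG00000031779) spans chr8:94745590-94751699 and *Ccl17* (ENSMUSG00000031780) chr8:94810453-94812036, both on the plus strand, and 58.8 kb separate them. Since their transcripts moved together, the bases before their first annotated exons are shown, read 5′ to 3′ on the plus strand from the RefSeq windows on GRCm38.p6. They are chr8:94810203-94810452 for *Ccl17* and chr8:94745434-94745589 for *Ccl22*, and capitals mark motif matches.
Ccl17: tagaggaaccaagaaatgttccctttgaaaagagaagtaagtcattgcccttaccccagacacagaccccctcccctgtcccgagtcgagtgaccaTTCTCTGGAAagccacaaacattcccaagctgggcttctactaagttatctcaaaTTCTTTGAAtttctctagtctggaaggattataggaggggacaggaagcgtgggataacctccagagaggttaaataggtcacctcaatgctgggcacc
Ccl22: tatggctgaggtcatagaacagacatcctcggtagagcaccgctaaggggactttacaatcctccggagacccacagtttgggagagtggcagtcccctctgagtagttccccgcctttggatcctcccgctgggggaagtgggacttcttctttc
Both strands of the 250 bases before the RefSeq start were searched for 5 motifs in the 7 members with a window, all but *Ccl4* and *Ccl5*. The window of *Ccl17* held TTCTCTGGAA, a match to TTCNNNNGAA (the spacing favored by STAT6, which IL-4 activates), 154 to 145 bases before the start. It also held TTCTTTGAA, a match to TTCNNNGAA (the spacing of other STAT factors), 99 to 91 bases before the start. Of 32851 RefSeq promoter windows, 5.85% held the first motif and 7.02% the second. The window of *Ccl22*, which runs on past the printed stretch into the first exon of the GENCODE model, held none of the 5 motifs, which says only that these letters were not in this window. The AP-1 motif TGANTCA was in 1 member (*Cxcl10*) and in 6.75% of all windows, the NF-kB motif GGGNNTTNCC in 2 members (*Cxcl10* and *Ccl20*, where 2 matches overlap) and in 4.11%, and the interferon response motif GAAANNGAAA in 1 member (*Cxcl10*) and in 2.98%.

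Only 3 of the 9 chemokines stood above 1 FPKM on average over the 12 libraries. *Ccl22* averaged 5.09 FPKM, *Ccl17* averaged 2.49 FPKM and *Ccl5* averaged 2.47 FPKM. The remaining 6 averaged 0.0181 FPKM (*Ccl1*) to 0.206 FPKM (*Ccl3*). Even the abundant members were modest transcripts, since the median tested gene of the DMSO group stood at 5.00 FPKM. The mean of *Ccl22* was above that of 35.4% of the tested genes with DMSO and above 62.3% with both compounds, and the mean of *Ccl17* moved from above 25.1% to above 49.2%.

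**Figure D1:**
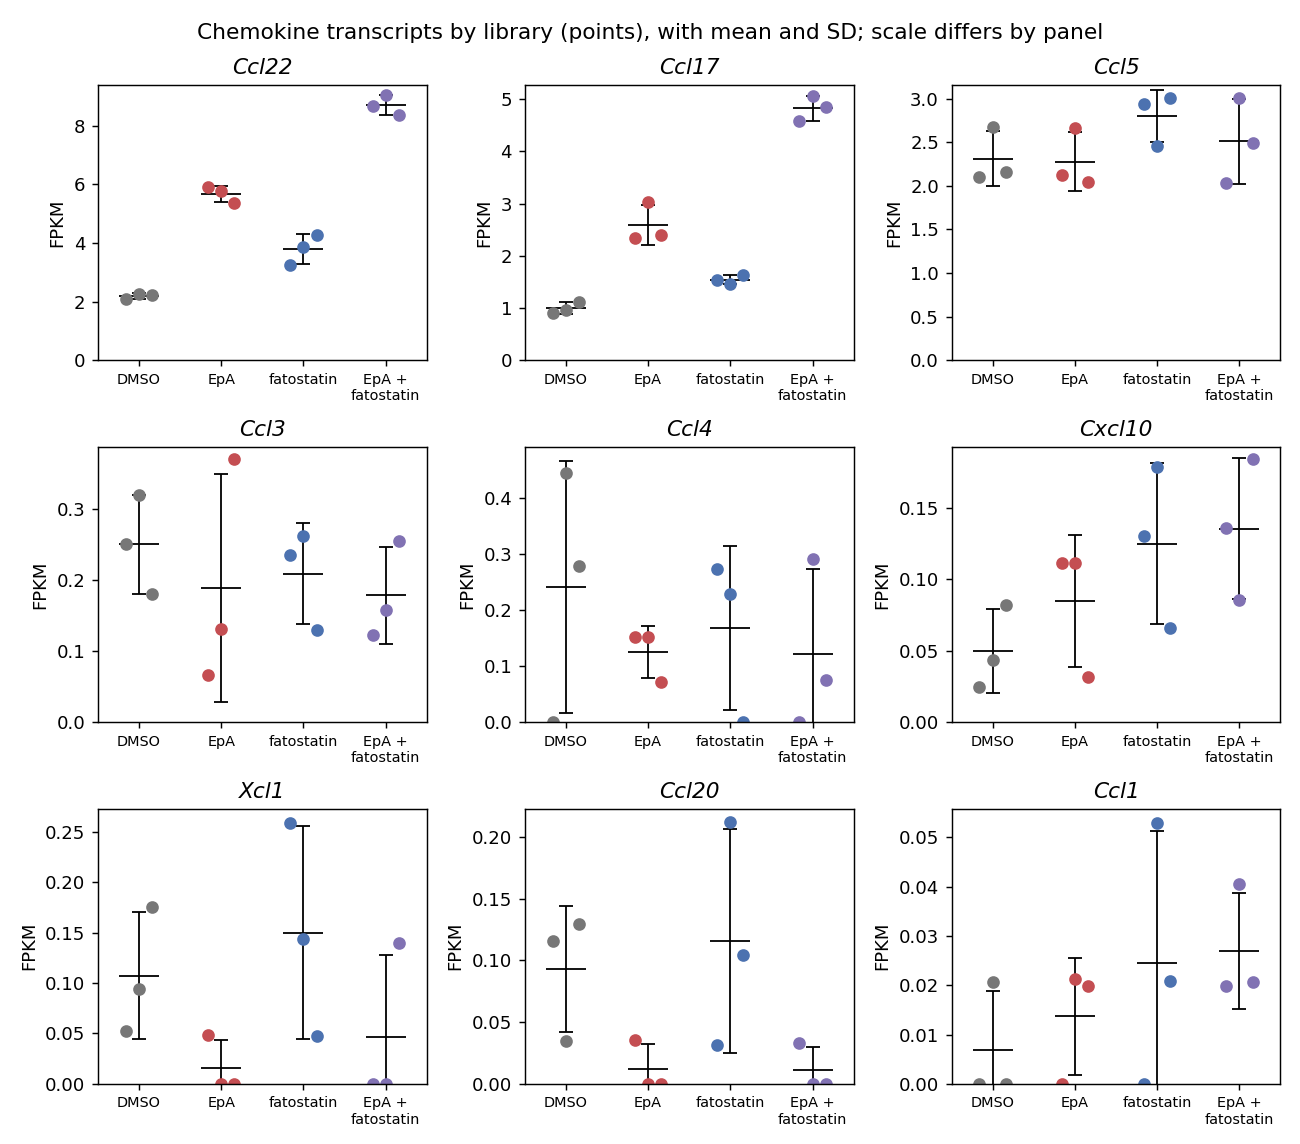
FPKM (vertical axis, from 0, with a scale of its own in each panel) of the 9 chemokines in the 4 groups. Points are the 3 libraries of a group, the wide line is the mean and the bars are 1 SD, cut off at 0. For *Ccl22* and *Ccl17* the groups are apart, from 2.08 to 2.26 FPKM of *Ccl22* with DMSO up to 8.36 to 9.04 FPKM with both compounds, whereas the points of the other 7 genes overlap between most groups.

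*Ccl22* and *Ccl17* were higher with either compound and highest with both. Relative to DMSO, the ratios of mean FPKM with EpA were 2.59 for *Ccl22* and 2.61 for *Ccl17*, those with fatostatin were 1.73 and 1.56, and those with both compounds were 3.97 and 4.87. No other member passed the test in any comparison. A gene passed at an adjusted p below 0.05 in limma, fitted over the 13733 genes that averaged 0.1 FPKM or more, and fold changes are given on the log2(FPKM + 0.1) scale. Of the 9 members, 5 were tested and 4 (*Cxcl10*, *Xcl1*, *Ccl20* and *Ccl1*) were below the minimum.

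*Ccl22* was at 2.08, 2.26 and 2.24 FPKM in the 3 DMSO libraries and at 5.90, 5.76 and 5.37 FPKM in the EpA libraries. It was at 3.25, 3.85 and 4.26 FPKM with fatostatin and at 8.68, 9.04 and 8.36 FPKM with both compounds. These values rest on 177 to 874 reads per library, and no library of a group reached into the range of another group. The group means were 2.19 ± 0.0990 (DMSO), 5.68 ± 0.275 (EpA), 3.79 ± 0.509 (fatostatin) and 8.70 ± 0.339 FPKM (both; SD, n = 3 each). Against DMSO, the log2 fold change was 1.33 with EpA (SE 0.0829, limma adjusted p = 7.61e-07) and 0.75 with fatostatin (adjusted p = 0.000104). Fatostatin on top of EpA raised *Ccl22* by a further 0.61 (adjusted p = 0.000506). EpA on top of fatostatin raised it by 1.19 (adjusted p = 1.46e-06), and both compounds against DMSO gave 1.94 (adjusted p = 1.92e-08).

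*Ccl17* followed the same order at lower levels. It was at 0.903, 0.952 and 1.12 FPKM with DMSO and at 2.35, 3.03 and 2.39 FPKM with EpA. With fatostatin it was at 1.53, 1.46 and 1.63 FPKM and with both compounds at 4.58, 5.05 and 4.84 FPKM. The groups did not overlap here either, although the reads were few, 17 to 25 per DMSO library, 30 to 35 with fatostatin, 48 to 62 with EpA and 100 to 108 with both. The group means were 0.991 ± 0.113, 2.59 ± 0.381, 1.54 ± 0.0847 and 4.82 ± 0.238 FPKM for DMSO, EpA, fatostatin and both compounds (SD, n = 3 each). The log2 fold change was 1.30 for EpA against DMSO (SE 0.103, limma adjusted p = 4.84e-06), 0.88 for both compounds against EpA (adjusted p = 0.000153), 1.58 for both against fatostatin (adjusted p = 9.19e-07) and 2.18 for both against DMSO (adjusted p = 3.99e-08). For fatostatin against DMSO it was 0.59 (adjusted p = 0.00264), with a 95% confidence interval of 0.37 to 0.82. That call had the highest adjusted p of the 10, and limma voom on the recovered reads gave 0.62 with an adjusted p of 0.182. With a pseudocount of 1 in place of 0.1, which weighs on low genes, the log2 fold change of *Ccl17* was 0.35 for fatostatin and 0.85 for EpA against DMSO, and both passed.

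In order of level, both genes ran from DMSO through fatostatin and EpA to both compounds. Each neighboring pair in that order passed the test except fatostatin and EpA, which were not compared by a test, and whose libraries did not overlap for either gene. The effect of EpA with fatostatin present was compared with its effect without. The difference of the log2 fold changes was -0.15 for *Ccl22* (95% confidence interval -0.40 to 0.11, limma adjusted p = 0.839) and 0.29 for *Ccl17* (-0.03 to 0.61, adjusted p = 0.697). No difference was detectable, and the intervals leave room for an EpA effect on *Ccl17* that was larger by 0.61 on the log2 scale in the presence of fatostatin.

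**Figure D2:**
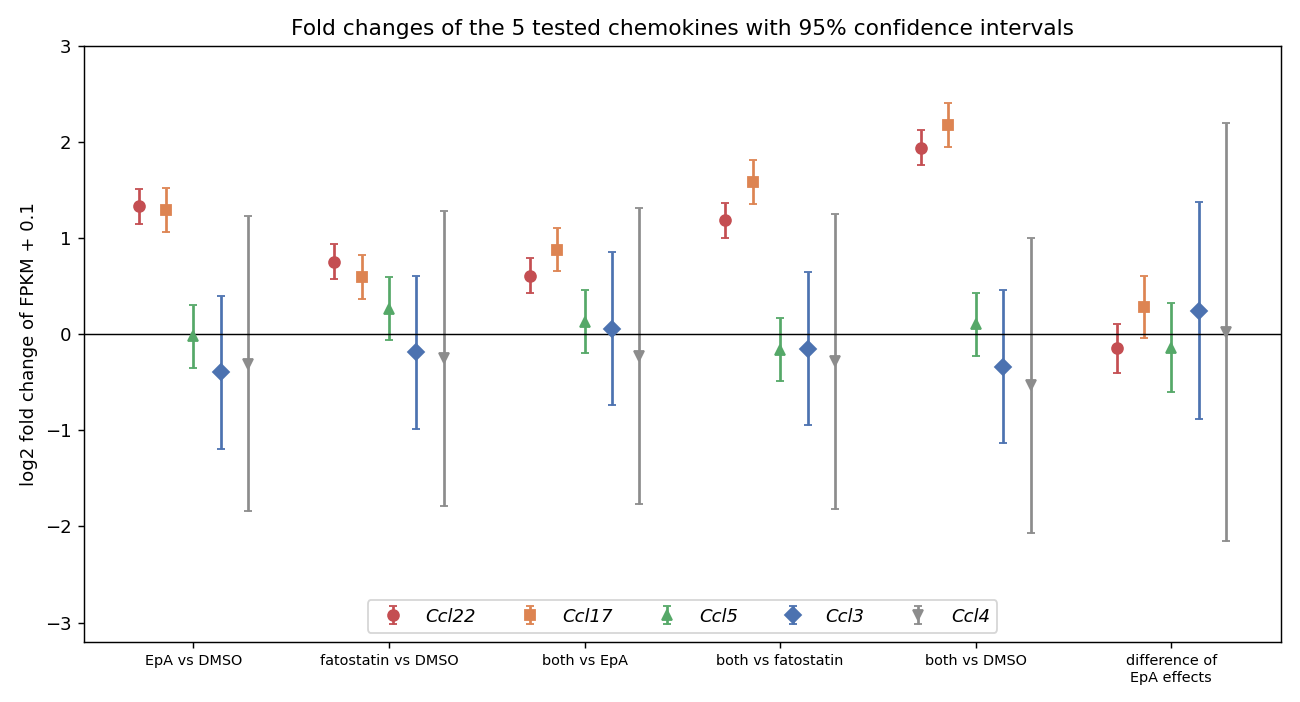
Log2 fold change of FPKM + 0.1 (vertical axis) of the 5 tested chemokines in the 5 comparisons and in the difference between the EpA effects with and without fatostatin; points are limma estimates and bars 95% confidence intervals. The intervals of *Ccl22* and *Ccl17* lie above 0 in the 5 comparisons, and those of *Ccl5*, *Ccl3* and *Ccl4* include 0 throughout.

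The calls stand against a broad response. Higher expression at an adjusted p below 0.05 was called for 14.3% of all tested genes in EpA against DMSO, 7.69% in fatostatin against DMSO, 9.22% in both against EpA, 16.2% in both against fatostatin and 19.7% in both against DMSO, beside 2 of the 5 tested members in each. With a fold of at least 1.5 as well, 1.44%, 1.35%, 1.51%, 1.89% and 3.63% of the tested genes were called higher, and the same pair of members passed in all 5 comparisons. For 2 of these calls the fold was close to 1.5. *Ccl17* in fatostatin against DMSO fell below it without DMSO replicate 1 (log2 fold change 0.54), DMSO replicate 2 (0.57) or fatostatin replicate 3 (0.56), and *Ccl22* in both against EpA without EpA replicate 3 (0.57) or replicate 2 of the combined group (0.58). With a pseudocount of 1, these 2 and *Ccl22* in fatostatin against DMSO (0.58) were below it as well. Of the tested genes, 21.7%, 16.5%, 18.9%, 22.5% and 25.7% were higher with no overlap between the groups compared, as *Ccl22* and *Ccl17* were. The test of the difference called 0.0437% of the genes and no member. The median log2 fold change of the 5 members was -0.02, 0.27, 0.13, -0.15 and 0.10 in the 5 comparisons, and that of all tested genes lay between 0.00 and 0.02.

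Because these are bulk samples, more cells that carry a transcript and more RNA per cell cannot be told apart. The cultures were started from naive CD4+ T cells isolated with a magnetic kit, a step that removes other spleen cells, and how many remained was not measured here. The 12 markers of macrophages, monocytes and dendritic cells summed to 0.485 to 0.700 FPKM with DMSO, 0.801 to 0.922 with EpA, 0.836 to 0.908 with fatostatin and 1.07 to 1.17 with both compounds, so that this sum moved in the direction of *Ccl17* and *Ccl22*. *Clec9a* and *Siglech* were at 0 in all libraries, and *Csf1r* averaged 0.0113 to 0.0238 FPKM in the 4 groups. Of the 3 markers that reached the minimum level, *Lyz2* (lysozyme) was higher against DMSO with EpA (log2 fold change 1.07, limma adjusted p = 0.00934), with fatostatin (1.15, 0.0113) and with both compounds (1.27, 0.00248), at means of 0.0371 FPKM with DMSO and 0.186 to 0.224 FPKM in the other groups. The *Lyz2* values rest on few reads, at most 4 in a DMSO library and at most 12 to 14 in the other groups. *Zbtb46*, a factor of conventional dendritic cells, was higher with both compounds than with DMSO (0.81, limma adjusted p = 0.0218). *Itgax* did not pass, at means of 0.383 to 0.410 FPKM. Of the T cell genes, *Cd3e*, *Cd3d*, *Cd3g* and *Cd28* were lower and *Cd4* was higher against DMSO both with EpA and with both compounds, at log2 fold changes with both compounds of -0.39, -0.28, -0.27, -0.89 and 0.21 (limma adjusted p = 3.87e-07, 2.34e-06, 2.31e-06, 1.03e-09 and 3.21e-06). With fatostatin alone, *Cd28* was lower and *Cd3g* and *Cd4* were higher. The part of macrophages, monocytes or dendritic cells, or of a change in the T cell genes, in the values of *Ccl17* and *Ccl22* was not tested.

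*Ccl5* (RANTES), which attracts memory and effector T cells, was at 2.11, 2.68 and 2.16 FPKM with DMSO and at 2.12, 2.67 and 2.04 FPKM with EpA. It was at 2.93, 2.46 and 3.01 FPKM with fatostatin and at 2.03, 3.01 and 2.49 FPKM with both compounds, on 74 to 125 reads per library. All 4 groups overlapped, and the means lay between 2.28 ± 0.340 and 2.80 ± 0.300 FPKM (SD, n = 3). The log2 fold change of EpA against DMSO was -0.02 (95% confidence interval -0.35 to 0.31, limma adjusted p = 0.933) and that of fatostatin against DMSO was 0.27 (-0.06 to 0.60, adjusted p = 0.288). Changes within those intervals were not detectable with these libraries. With DMSO, the libraries of *Ccl5* and *Ccl22* overlapped in FPKM, and with both compounds the lowest *Ccl22* library was above the highest *Ccl5* library.

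*Ccl3* and *Ccl4*, the macrophage inflammatory proteins, lie close to each other on chromosome 11 with *Ccl5* (*Ccl3* at chr11:83647844-83649355, *Ccl4* at chr11:83662584-83664683 and *Ccl5* at chr11:83525778-83530518). *Ccl3* was at 0.250, 0.320 and 0.180 FPKM with DMSO, 0.0656, 0.131 and 0.370 with EpA, 0.235, 0.262 and 0.129 with fatostatin and 0.123, 0.157 and 0.255 with both, on 2 to 12 reads per library. *Ccl4* was at 0 in 3 libraries, 1 each of the DMSO, fatostatin and combined groups, and reached 0.445 FPKM at most, on 12 reads. A spread this wide within groups left no resolution. The log2 fold change for EpA against DMSO was -0.40 for *Ccl3* (95% confidence interval -1.19 to 0.40, limma adjusted p = 0.471) and -0.31 for *Ccl4* (-1.84 to 1.23, adjusted p = 0.798), and neither gene passed in the other comparisons.

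The remaining 4 members were close to the limit of counting. *Cxcl10*, an interferon-induced chemokine on chromosome 5, had 2, 4 and 8 reads in the DMSO libraries, 10, 10 and 3 with EpA, 13, 16 and 6 with fatostatin and 13, 8 and 17 with both compounds. *Ccl20* had 6, 2 and 8 reads with DMSO and 2, 12 and 6 with fatostatin, against 2, 0 and 0 in the EpA libraries and again 2, 0 and 0 with both compounds. *Xcl1* (lymphotactin) had 1, 2 and 4 reads with DMSO, 1, 0 and 0 with EpA, 6, 3 and 1 with fatostatin and 0, 0 and 3 with both. *Ccl1* had 0 to 5 reads per library, over an annotated exon length of 2369 bases, against 523 for *Xcl1*. Both mates of a fragment were counted, so that these reads stand for fewer fragments. Counts of 3 reads or fewer, taken as the floor, made up 8 of the 12 libraries for *Ccl20*, and 10 of 12 for both *Xcl1* and *Ccl1*.

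When the minimum level was dropped and 20828 genes were tested, none of these 4 passed. The lowest adjusted p was that of *Ccl20* for both compounds against fatostatin (log2 fold change -0.89, limma adjusted p = 0.0746, unadjusted p = 0.0154). For *Ccl20* in EpA against DMSO the log2 fold change was -0.76 (adjusted p = 0.132). *Cxcl10* in both compounds against DMSO had a log2 fold change of 0.65 (adjusted p = 0.115, unadjusted p = 0.0324). *Xcl1* shares 98 exonic bases with the antisense gene *Gm20743*, and *Cxcl10* shares 133 with *Art3* on the other strand. The use of strand in counting is not given in the sources used here, so reads of these partners cannot be told apart from theirs.

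The make-up of the chemokine transcripts changed accordingly. The 9 members summed to 6.25 ± 0.666 FPKM with DMSO, 11.0 ± 0.806 with EpA, 8.92 ± 0.317 with fatostatin and 16.6 ± 1.05 with both compounds (SD, n = 3 each). *Ccl17* and *Ccl22* together made up 51.2% ± 3.75 of that sum with DMSO, 75.3% ± 1.23 with EpA, 59.7% ± 4.15 with fatostatin and 81.8% ± 2.79 with both. The share of *Ccl5* went from 37.0% ± 2.74 with DMSO to 15.1% ± 1.99 with both compounds, while its level overlapped between these groups. The ratio of *Ccl22* to *Ccl17* was 2.23 ± 0.200 with DMSO, 2.22 ± 0.306 with EpA, 2.45 ± 0.291 with fatostatin and 1.80 ± 0.0857 with both, and each library of the combined group lay below all libraries of the other groups, by little in the case of EpA.

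**Figure D3:**
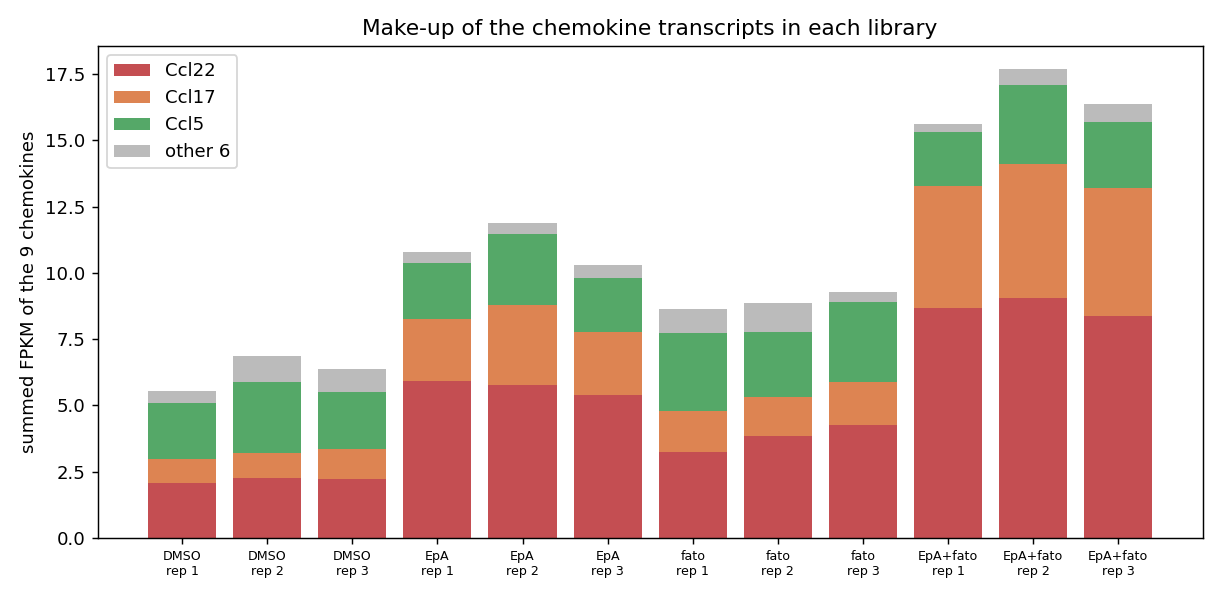
Summed FPKM of the 9 chemokines (vertical axis, from 0) in each of the 12 libraries, divided into *Ccl22*, *Ccl17*, *Ccl5* and the other 6 genes; fato is fatostatin and rep is replicate. The bars reach 5.53 to 6.85 FPKM with DMSO and 15.6 to 17.7 FPKM with both compounds, and the *Ccl5* segment stays between 2.03 and 3.01 FPKM.

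On chromosome 8, the third chemokine of the cluster is *Cx3cl1* (fractalkine), a membrane-bound ligand of *Cx3cr1* at chr8:94772009-94782427. It was at 0.0973, 0.0872 and 0.0644 FPKM with DMSO, at 0.160, 0.166 and 0.0601 with EpA, at 0.149, 0.0766 and 0.0628 with fatostatin and at 0.347, 0.208 and 0.230 FPKM with both compounds. The combined group stood above all others, and the single-compound groups overlapped DMSO. The log2 fold change was 0.97 for both compounds against DMSO (limma adjusted p = 0.0154) and 0.89 for both against fatostatin (adjusted p = 0.0280), whereas both compounds against EpA gave 0.68 (adjusted p = 0.117), EpA alone 0.29 (adjusted p = 0.482) and fatostatin alone 0.08 (adjusted p = 0.895). Of the flanking genes tested, *Arl2bp* was lower by a log2 fold change of -0.09 with both compounds (adjusted p = 0.00356), and *Ciapin1* and *Coq9* did not pass in that comparison (-0.07 and 0.05, adjusted p = 0.341 and 0.610). *Ciapin1* was lower with fatostatin alone (-0.25, adjusted p = 0.0121).

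**Figure D4:**
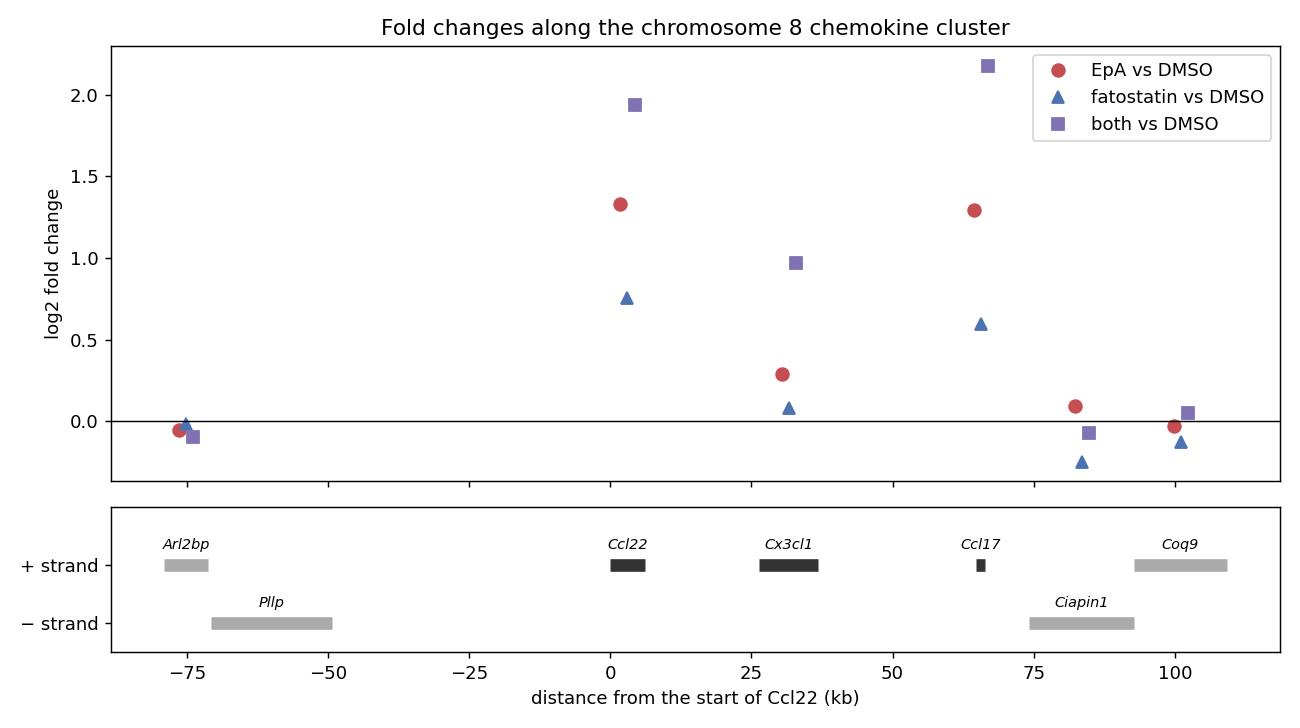
Log2 fold change of FPKM + 0.1 against DMSO (upper panel, points at the middle of each gene for EpA, fatostatin and both compounds, set slightly apart sideways) and gene positions on each strand (lower panel) by distance from the start of *Ccl22* in kb; chemokine genes are dark, flanking genes gray, and *Pllp* was below the minimum level. *Ccl22* and *Ccl17* reach 1.94 and 2.18 with both compounds, *Cx3cl1* between them 0.97, and the flanking genes stay between -0.25 and 0.09.

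Over the 12 libraries, the genes most like *Ccl22* in log2(FPKM + 0.1), among the 10297 genes that averaged 1 FPKM or more, were *Ndrg2* (Pearson r = 0.988), *Sat1* (0.986) and *Akr1c18* (0.985). Those most like *Ccl17* were *Traf1* (0.986), *Acox3* (0.985) and *Tgm2* (0.985). *Ccl17* stood at rank 11 for *Ccl22*, and *Ccl22* at rank 15 for *Ccl17*, with r = 0.978 between them. The genes most like *Ccl5* reached only 0.824 (*Psme2b*), 0.818 (*Selenop*) and 0.813 (*Sri*). These values are a description, since the points share the 4 treatment groups.

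Of the 35 other genes with a ligand symbol, 18 were at 0 in all libraries, the pseudogene among them, and 9 were tested. Against DMSO, 2 of the 9 were higher with EpA, 1 with fatostatin and 4 with both compounds, beside 14.3%, 7.69% and 19.7% of all tested genes. None of the 9 was lower in the 5 comparisons, in which 13.1% (EpA against DMSO), 6.31% (fatostatin against DMSO), 6.79% (both against EpA), 13.3% (both against fatostatin) and 15.8% (both against DMSO) of all tested genes were lower. *Ppbp* and *Pf4*, the platelet chemokines, were at means of 0.183 and 1.10 FPKM with DMSO and at 0.619 and 2.29 FPKM with EpA (log2 fold change 1.35 and 1.02, limma adjusted p = 0.00140 and 0.00567). With both compounds they stood at 0.687 and 2.76 FPKM (1.48 and 1.28, adjusted p = 0.000484 and 0.00100). *Ppbp* was also higher with fatostatin alone (0.91, limma adjusted p = 0.0239). Its reads were few, 6 to 10 per DMSO library, 22 to 32 with EpA, 12 to 26 with fatostatin and 30 to 33 with both. *Ccl24* (eotaxin-2), which attracts eosinophils through *Ccr3*, was at 0.422, 0.416 and 0.533 FPKM with DMSO and at 1.16, 1.23 and 1.09 FPKM with both compounds (1.18, adjusted p = 0.00157). It was also higher in both compounds than in EpA (0.88, adjusted p = 0.0202). The other 5 tested ligands, *Ccl25*, *Ccl27a*, *Ccl6*, *Ccl9* and *Cxcl16*, did not pass in any comparison.

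Among receptors of the members, *Ccr4*, which binds *Ccl17* and *Ccl22*, and *Ccr8*, which binds *Ccl1*, were abundant, at group means of 183 to 188 and 171 to 193 FPKM. With both compounds against DMSO, *Ccr4* was lower by a log2 fold change of -0.04 (limma adjusted p = 0.0448), beside the 1.94 and 2.18 of *Ccl22* and *Ccl17*. *Ccr8* was lower with EpA (-0.18, adjusted p = 0.000241). *Cxcr3*, the receptor of *Cxcl10*, was at 7.02 ± 0.525 FPKM with DMSO and 2.60 ± 0.381 with EpA (-1.41, adjusted p = 1.66e-06). *Ccr6*, the receptor of *Ccl20*, was higher with both compounds than with DMSO (0.61, adjusted p = 0.00134), and *Xcr1*, the receptor of *Xcl1*, was lower with EpA at 0.0847 against 0.195 FPKM (-0.66, adjusted p = 0.0338). *Ccr1* and *Ccr3* were below the minimum level.

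**Figure D5:**
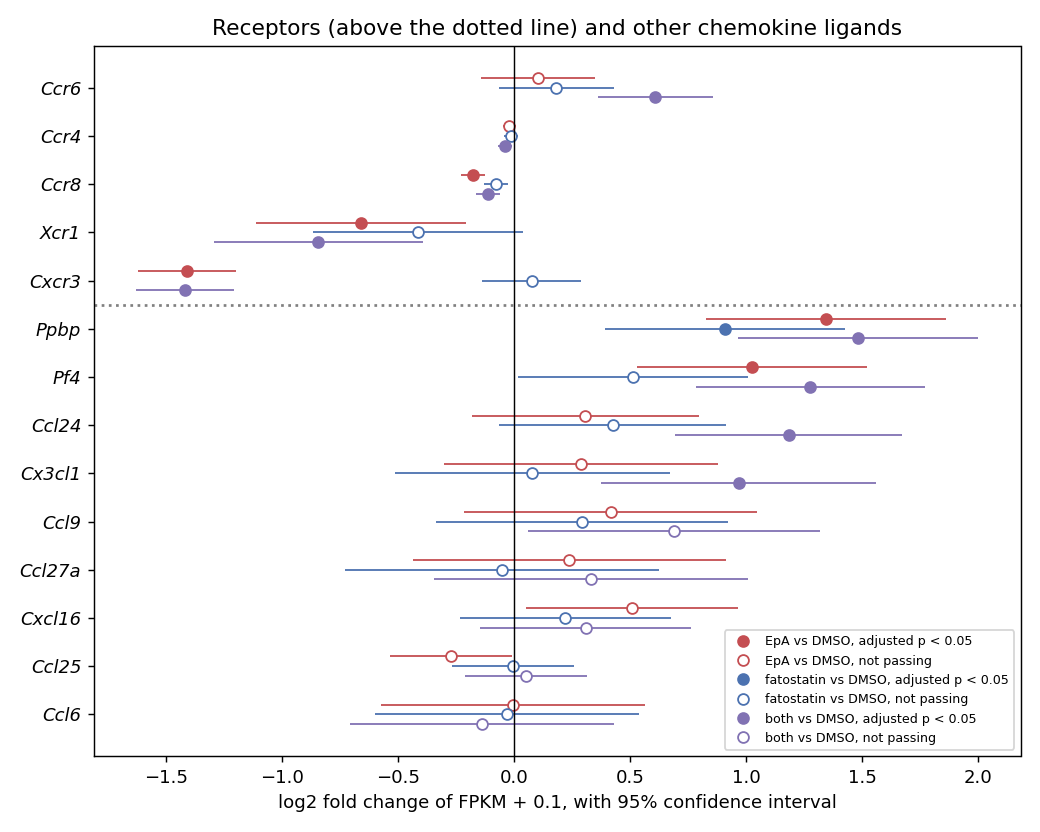
Log2 fold change of FPKM + 0.1 against DMSO (horizontal axis) of 5 receptors (above the dotted line) and 9 other chemokine ligands (below it) with EpA, fatostatin or both compounds; bars are 95% confidence intervals and filled points passed at an adjusted p below 0.05. *Cxcr3* lies at -1.41 with EpA and -1.42 with both, and *Ppbp*, *Pf4*, *Ccl24* and *Cx3cl1* lie between 0.97 and 1.48 with both compounds.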

How the data were processed

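RNA-seq was performed on Th9 cells in 4 groups of 3 libraries. The authors used Trim Galore for trimming, HISAT2 for alignment to GRCm38 and featureCounts for counting, and the deposited values are FPKM. The table holds 32352 lines for 32051 genes; 301 lines repeat a gene with the same values and were dropped. Library size and gene length are divided out, and the annotation release and strand setting are not given in the sources used here. With GENCODE vM21 exon lengths (32003 genes), 98.3% to 98.4% of values came out as whole reads within 0.02.

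Genes that averaged 0.1 FPKM or more were fitted on log2(FPKM + 0.1) in R 4.3.3 with limma 3.58.1, as 1 mean per group with an intensity trend and 8 residual degrees of freedom. The pseudocount understates changes of low genes. p-values are two-sided, with Benjamini-Hochberg adjustment over all tested genes, and passing means below 0.05. The methods were tested on simulated data. A permutation of 3 against 3 libraries cannot go below p = 0.1, so no such test was used. Same-numbered libraries did not deviate together, so the main fit had no replicate block.

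Named were the 9 members, their receptors (of which 1 is not reported here), other tested ligands, the direct chromosomal neighbors in the cluster and, for members of at least 1 FPKM, the 3 genes of highest Pearson r. The T cell, CD8 T and NK cell, B cell, myeloid, granulocyte and mast cell, and Th9 marker lists, the members and the motifs were chosen with earlier results of these data known. Alternatives changed the pseudocount, minimum, scaling, trend, groups in the fit, block, read model (voom) and libraries. Sequences are from RefSeq. Counts cover counting error only.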

Additional observations from a re-analysis of the deposited data

How the results depend on the processing

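Of 594 values recomputed under the alternatives, 567 kept their direction and side of the threshold, and *Ccl22* passed in each of the 5 comparisons under every alternative run. For fatostatin against DMSO, voom on the recovered reads left 1 member passing (*Ccl22*), with *Ccl17* at 0.62 (adjusted p = 0.182); the adjusted p of *Ccl17* there was at most that over its 16 alternatives, of which 15 kept the call. The cause was not tested. Values that turned direction belonged to members that passed nowhere. *Ccl4* in EpA against DMSO was 0.24 with a pseudocount of 0.01, and its difference between the EpA effects was -0.71 with that pseudocount and -0.38 with voom. *Ccl3* in both against EpA was -0.0061 with a pseudocount of 1.

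Leaving out 1 library at a time left 2 members passing in each of the 5 comparisons and 0 in the difference. Log2 fold changes then ranged, for *Ccl3*, from -0.82 (without EpA replicate 3) to -0.066 (without EpA replicate 1) in EpA against DMSO, where it did not pass, from -0.27 to 0.48 in both against EpA, from -0.34 to 0.014 in fatostatin against DMSO and from -0.084 to 0.67 in the difference. For *Ccl4* they ranged from -1.03 to 0.19 in EpA against DMSO, from -0.98 to 0.35 in fatostatin against DMSO, from -0.75 to 0.23 in both against EpA, from -0.88 to 0.18 in both against fatostatin and from -0.58 to 0.75 in the difference. For *Ccl5* they ranged from -0.14 to 0.082 in EpA against DMSO, from -0.0057 to 0.27 in both against EpA and from -0.029 to 0.24 in both against DMSO. The difference of *Ccl22*, which passed nowhere, ranged from -0.25 (without fatostatin replicate 1) to -0.060 (without fatostatin replicate 3), and was -0.041 with a pseudocount of 1. Over all genes, the difference called 6, and 10 with a pseudocount of 0.01, 20 with voom, 1 with TPM, 0 with median-of-ratios scaling and 0 to 2 without 1 library.

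The labels number replicates in all groups. Of 18 same-numbered pairs, 1 had a correlation of deviations above 0.1 (range -0.09 to 0.11), and 6 correlated best with their own number. These values show no shared deviation by number, but cannot say whether same-numbered libraries shared a mouse or culture. With the replicate number as a block, 2 members passed in each comparison and 0 in the difference, where 0 of all genes were called. Depth limits *Ccl1*, *Xcl1* and *Ccl20* most, at 3 reads or fewer in 8 to 10 of 12 libraries.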

Other observations

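Markers of further cell types were summed in each library. The 6 markers of CD8 T and NK cells, some of which activated CD4+ T cells can also carry, summed to 13.9 to 15.0 FPKM with DMSO, 11.0 to 11.6 with EpA, 12.3 to 13.9 with fatostatin and 9.0 to 11.0 with both compounds. Of the 4 that reached the minimum level, *Klrd1*, *Eomes* and *Cd8a* were lower with EpA than with DMSO (log2 fold change -0.79, -0.90 and -1.08, limma adjusted p = 0.000196, 0.00779 and 2.85e-05) and with both compounds than with DMSO (-1.30, -0.95 and -1.70, adjusted p = 2.51e-06, 0.00438 and 4.51e-07). The other tested marker, *Cd8b1*, was at means of 7.25 to 7.64 FPKM in the 4 groups. It did not pass with EpA (log2 fold change -0.03, limma adjusted p = 0.877) or both compounds (-0.07, adjusted p = 0.600) against DMSO. *Klrd1* and *Cd8a* were lower in both compounds than in EpA (-0.51 and -0.62, adjusted p = 0.00626 and 0.00281), and *Klrd1* was lower with fatostatin alone (-0.44, adjusted p = 0.0143). The 5 B cell markers summed to 5.99 to 7.90 FPKM with DMSO, 5.20 to 6.23 with EpA, 7.55 to 8.68 with fatostatin and 6.29 to 6.89 with both compounds. *Cd79a* was lower with EpA than with DMSO (log2 fold change -0.60, limma adjusted p = 0.0127) and higher with both compounds than with EpA (0.72, adjusted p = 0.00828), and both compounds against DMSO gave 0.11 (adjusted p = 0.624). The 6 markers of granulocytes and mast cells summed to 1.11 to 1.58 FPKM with DMSO, 1.83 to 2.20 with EpA, 1.18 to 2.08 with fatostatin and 1.12 to 2.07 with both compounds. *Mcpt8*, a basophil protease, was higher with EpA than with DMSO (log2 fold change 0.90, limma adjusted p = 0.0492), and both compounds against DMSO gave 0.02 (adjusted p = 0.971). The 4 Th9 genes summed to 283 to 290 FPKM with DMSO, 858 to 892 with EpA, 293 to 305 with fatostatin and 1053 to 1109 with both compounds, and *Spi1* contributed at most 0.168 FPKM to any of these sums. With EpA against DMSO, *Il9* (log2 fold change 3.55, limma adjusted p = 2.18e-11) and *Batf* (0.34, adjusted p = 5.20e-06) were higher. *Irf4* was lower there (-0.12, adjusted p = 0.00185). With both compounds against DMSO, all 3 were higher.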
